A study of Homo sapiens with 5 samples.

Results

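The genes described here are those of cholesterol synthesis and sterol sensing in PC9 cells, an established line from a human lung adenocarcinoma whose EGFR carries an activating mutation. They were chosen by symbol from a list of 29 genes, of which 28 were analysed among the 27477 genes of the authors' deposited table, and STARD4, a sterol carrier, was not analysed here. Poly(A) RNA was sequenced from 2 libraries of gefitinib-tolerant cells, labelled DTC, and from 3 libraries of parental cells. DTC cells had been given 50 nM gefitinib, an inhibitor of the EGFR kinase, for 6 days and had then stood in growth medium for 3 days. Parental cells were the same line, titled only as parental. Both groups were grown with fetal bovine serum, which brings in cholesterol. Every library is of 1 cell line, and the labels do not tell whether replicates were separate cultures, so p-values measure only the spread between these libraries.

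Cells build cholesterol from acetyl-CoA. The mevalonate enzymes make farnesyl diphosphate, and the sterol enzymes turn it into squalene, lanosterol and cholesterol. When sterols in the endoplasmic reticulum are scarce, SCAP escorts SREBP2, the product of SREBF2, to the Golgi, where it is cut and becomes a transcription factor for most of these enzymes and for INSIG1. When sterols are plentiful, INSIG1 and INSIG2 hold SCAP back, and oxysterols activate the nuclear receptors LXR-alpha (NR1H3) and LXR-beta (NR1H2), which switch on the exporters ABCA1 and ABCG1 and the ubiquitin ligase MYLIP. SOAT1 esterifies cholesterol for storage.

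The authors' deposited table holds 1 comparison and no values per library. Its mean levels, fold changes and standard errors could nevertheless be solved for the whole reads behind them. In HMGCS1, NSDHL, NR1H2, SREBF2, SCAP, INSIG2, SOAT1 and ABCA1, from 2 (HMGCS1) to 15 (ABCA1) sets of reads matched these values. A dispersion rule fitted to genes of lower level then chose among them. With that rule, 1 solution was left for each of the 28 genes. The libraries were named DTC a and b and parental a, b and c by falling size factor and could not be tied to replicate numbers. Levels below are normalised read counts, that is, recovered reads divided by the authors' size factor of the library. Depths were about 14.2 to 20.4 M counted reads in DTC libraries and 17.3 to 21.4 M in parental libraries. The groups of 2 and 3 can be drawn from 5 libraries in 10 ways, so the smallest two-sided p of an exact permutation test is 0.1, and no such test is given for single levels.

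One library stood apart from its group. Over 6889 genes with a mean level of 100 to 1000, the chi-square per degree of freedom, which allows for counting error only, was 1.68 between the DTC libraries and 1.88 between parental b and c. Parental a differed from DTC a and b by 10.3 and 9.35, and from parental b and c by 62.9 and 65.3. Parental a was also on the DTC side in a trend with transcript length. Protein-coding transcripts over 4000 bases had a median log2 level, relative to the mean of the libraries, of 0.15 in each DTC library, and of 0.19 in parental a, -0.30 in parental b and -0.33 in parental c. Transcripts under 2000 bases had -0.32 and -0.31 in DTC a and b, and -0.45, 0.38 and 0.43 in parental a, b and c. The members had a median transcript length of 2739 bases, against 3376 bases over the 8029 genes with a mean level of 50 to 1000 whose reads were recovered. Results are therefore given with and without parental a, and with the length and GC trend removed where that matters. Without parental a, only parental b and c are left, which differed from DTC a by a chi-square per degree of freedom of 57.8 and 59.3. In that refit, the group and this wide difference between libraries cannot be told apart. PC9 is labelled as a lung cancer line: the authors' deposited table gives EPCAM, an epithelial marker, a mean level of 8755, and the lung markers NKX2-1 and SFTPB 2.83 and 10.4. Of 25 markers of epithelial, lung, haematopoietic, fibroblast, endothelial and hepatocyte or adrenal cells, 18 were analysed, and no marker was called in the authors' deposited table. Outside the epithelial and lung lists, the authors' deposited table has PECAM1 and CDH5 (endothelial), COL1A1 (fibroblast) and CYP11A1 (adrenal) at 1616, 253, 162 and 132 normalised reads on average over the libraries. In the authors' deposited table VWF (endothelial), ITGAM (haematopoietic), and CYP7A1 and STAR (hepatocyte and adrenal), ranged from 0.344 (STAR) to 25.9 (ITGAM), and COL1A2, PDGFRA and DCN of the fibroblast list were not analysed here.

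The bases before the start of 5 genes are shown because SREBP2 and its partner factors are known to act near the starts of these genes. They include those of INSIG1, the 1 gene that passed the test, and of HSD17B7 and TM7SF2, sterol enzymes with small p-values. HMGCS1, an enzyme that set parental a apart, is shown too. SREBF2 is included because it alone, of the genes searched, held the form of the sterol regulatory element used. The sequences are RefSeq's (GRCh38.p14), 5′ to 3′ on the gene's strand, and end before the start in both RefSeq and GENCODE 29. Capitals mark the sterol regulatory element TCACNCCAC, the CCAAT box, the GC box GGGCGG and the E-box CACGTG on either strand, and in INSIG1 2 GC boxes share 1 base.
INSIG1: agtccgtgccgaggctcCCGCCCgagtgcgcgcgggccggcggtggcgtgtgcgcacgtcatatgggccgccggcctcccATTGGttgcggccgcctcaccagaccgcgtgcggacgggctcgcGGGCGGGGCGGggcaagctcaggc
HSD17B7: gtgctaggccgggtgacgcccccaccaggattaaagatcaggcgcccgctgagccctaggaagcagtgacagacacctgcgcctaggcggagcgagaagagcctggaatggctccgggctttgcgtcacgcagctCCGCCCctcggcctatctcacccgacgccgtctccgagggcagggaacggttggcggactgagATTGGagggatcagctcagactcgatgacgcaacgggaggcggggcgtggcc
TM7SF2: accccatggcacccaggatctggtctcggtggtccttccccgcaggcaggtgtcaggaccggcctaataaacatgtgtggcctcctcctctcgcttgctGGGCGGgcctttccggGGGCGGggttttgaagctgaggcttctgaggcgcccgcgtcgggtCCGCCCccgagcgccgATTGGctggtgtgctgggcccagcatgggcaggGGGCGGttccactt
HMGCS1: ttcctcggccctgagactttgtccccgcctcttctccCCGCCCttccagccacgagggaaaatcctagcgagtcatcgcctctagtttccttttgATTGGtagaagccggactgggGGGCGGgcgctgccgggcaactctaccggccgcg
SREBF2: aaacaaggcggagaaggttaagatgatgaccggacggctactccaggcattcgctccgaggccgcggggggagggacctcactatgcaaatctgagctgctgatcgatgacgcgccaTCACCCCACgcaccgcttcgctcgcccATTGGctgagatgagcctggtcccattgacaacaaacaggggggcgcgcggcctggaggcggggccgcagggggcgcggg
They lie at chr7:155297628-155297775 (plus strand) for INSIG1, chr1:162790452-162790701 (plus) for HSD17B7, chr11:65111622-65111844 (plus) for TM7SF2, chr5:43313513-43313662 (minus) for HMGCS1 and chr22:41832855-41833078 (plus) for SREBF2.

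RefSeq windows were at hand for 24 of the 28 genes, and all 250 bases before each start were searched, on both strands, with any window of a gene counted. The sterol regulatory element was found in 1 of the 24 genes (4.17%), SREBF2, against 1.09% of all 27305 genes with a window. Only 1 form of this element was searched, so other forms, and sites outside the window, would be missed. A CCAAT box, known as the site of NF-Y, a partner of SREBP2, was found in 18 of the 24 (75.0%), against 37.0% of all genes. The 6 without one were PMVK, CYP51A1, INSIG2, SCAP, NR1H2 and ABCA1. A GC box was found in 23 of the 24 (95.8%), against 46.2% of all genes, and an E-box in 4 (16.7%), against 7.73%. The shares over all genes were not matched to the 24 for level, gene type or GC content of the window. What set the shares apart was not tested. These matches describe letters in the window and say nothing of binding.

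Most of the 28 cholesterol genes stood lower in DTC libraries, and 1 of them, INSIG1, fell beyond the threshold of an adjusted p under 0.05. The authors' deposited table gave 25 of the 28 genes a log2 fold change below 0, where 51.6% of the 15223 tested genes were below 0. Their median log2 fold change in the authors' deposited table was -0.54, against -0.02 over all tested genes. The share called lower among all tested genes was 0.289%, and the share called higher was 0.263%; no cholesterol gene was called higher. At an unadjusted p under 0.05, the authors' deposited table had 15 of the 28 lower, where 7.1% of all tested genes were lower, and none higher, where 3.7% of all were higher. In recovered reads, both DTC libraries lay below all 3 parental libraries in 21 genes and above all 3 in ABCA1 and SOAT1, and the groups overlapped in SQLE, LSS, CYP51A1, SCAP and NR1H2. Of the 20 genes with a mean level under 1000, 17 had both DTC libraries below all 3 parental ones and none had them above. Over the 8029 genes of like level, 17.4% had both DTC libraries below and 19.6% above. Set against parental b and c alone, both DTC libraries were lower in 23 of the 28 genes and higher in 4. Over the 8029 genes these shares were 46.8% and 41.1%. The DTC mean was 0.94, 0.90 and 0.88 of the mean of parental b and c in HMGCS1, SQLE and SREBF2. In LSS and CYP51A1 it was 1.27 and 2.63 times that mean.

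**Figure D1:**
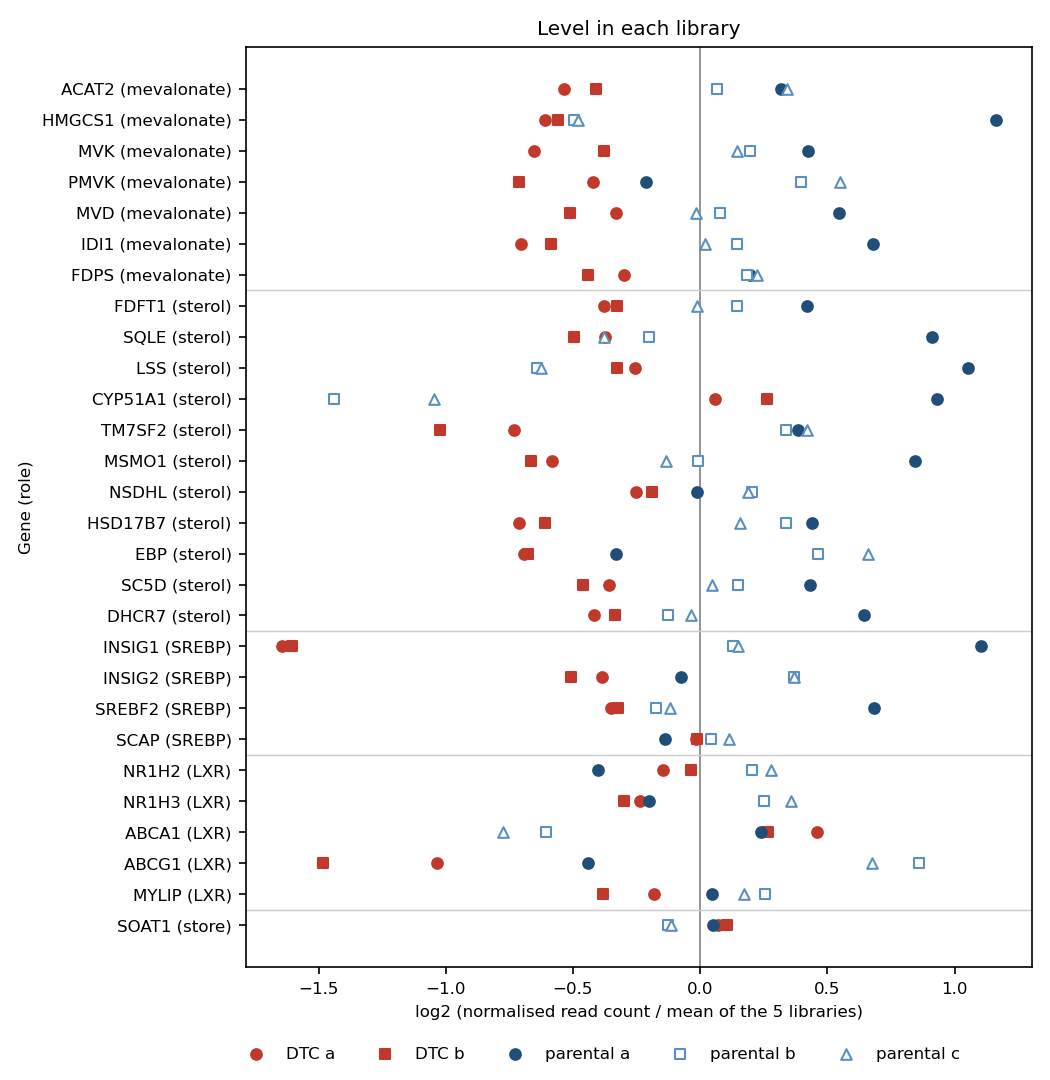
Normalised read count of each gene in each library, as the log2 ratio to the mean of the 5 libraries (horizontal axis), with genes grouped by role (vertical axis). The DTC libraries (red) lie left of all parental libraries (blue) in 21 of 28 genes, INSIG1 has the widest gap, and parental a (filled blue) lies far right of parental b and c in HMGCS1, SQLE, LSS and CYP51A1.

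INSIG1 encodes the membrane protein that retains SCAP, and its own transcription follows SREBP2. It lies on chromosome 7 (155297776 to 155310235, GRCh38; ENSG00000186480). INSIG1 had 155 and 159.7 normalised reads in DTC a and b, against 1043, 529.7 and 537 in parental a, b and c. Each parental library held more than 3 times the level of either DTC library, so the groups did not overlap. Its mean was 157.5 ± 3.2 in DTC cells (SD, n = 2) and 703 ± 294.5 in parental cells (SD, n = 3), a ratio of 0.224. The authors' deposited table gave INSIG1 a log2 fold change of -1.71 ± 0.33 (SE; 95% interval -2.35 to -1.06) with an adjusted p of 0.000355 (DESeq2), the ninth smallest p of 15223. The deposited value is drawn towards 0, and the log2 ratio of the mean levels was -2.16. Without parental a the DTC mean was 0.30 of the mean of parental b and c, and the refitted log2 fold change was -1.35 ± 0.35 with an adjusted p of 0.020. Left with 1 DTC library, INSIG1 no longer passed, with an adjusted p of 0.088 without DTC a and 0.074 without DTC b, although its refitted log2 fold change was -1.46 and -1.49. Over all 11426 genes refitted, 38 were called lower and 38 higher with all libraries, 2 lower and 7 higher without DTC a, and 0 lower and 4 higher without DTC b.

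INSIG2, the second retention protein, which is not known to depend on SREBP2, had 1470.1 and 1350.1 normalised reads in DTC a and b, against 1822, 2483 and 2481 in parental a, b and c. The groups did not overlap, and parental a lay between DTC and the other parental libraries, the reverse of INSIG1. The authors' deposited table gave INSIG2 a log2 fold change of -0.61 (SE 0.25; adjusted p = 0.382.) SREBF2, the gene of SREBP2 itself, had 1257 and 1280.4 normalised reads in DTC a and b, against 2575, 1421 and 1476 in parental a, b and c. DTC cells stood at 0.49 of parental a but at 0.88 of parental b and c, and the adjusted p in the authors' deposited table was 0.527. SCAP, the escort, had 1619 and 1621 normalised reads in DTC a and b, against 1488, 1683.5 and 1769 in parental a, b and c, so the DTC libraries lay inside the parental range. Its 95% interval in the authors' deposited table ran from -0.45 to 0.40 on the log2 scale.

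**Figure D2:**
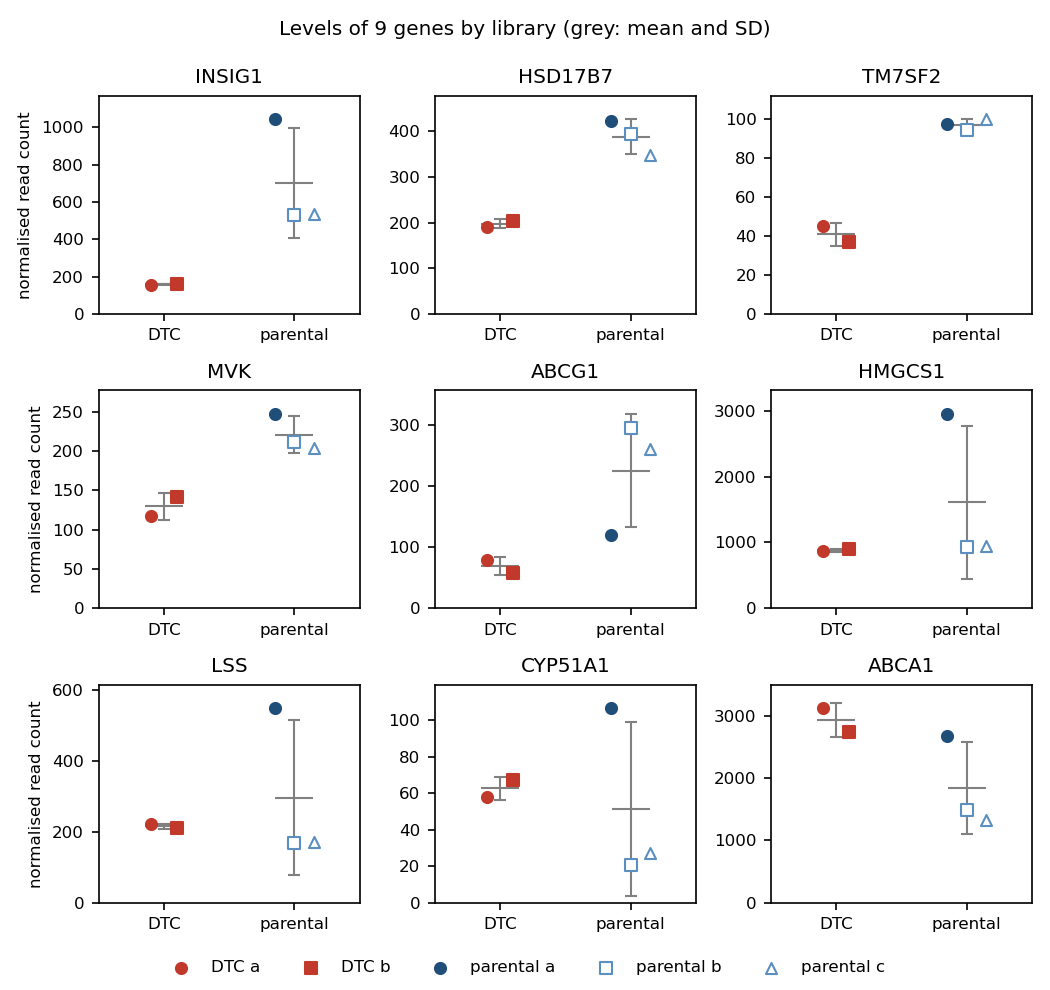
Normalised read counts (vertical axis, from 0) of 9 genes in the DTC and parental libraries, with grey lines for mean and SD (n = 2 and 3). INSIG1, HSD17B7, TM7SF2 and MVK are below all parental libraries whichever is taken, whereas HMGCS1, LSS and CYP51A1 are high in parental a (2954, 547 and 107) and not in parental b and c.

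All 7 mevalonate enzymes had both DTC libraries below all 3 parental ones, and none passed the test. Their median log2 fold change in the authors' deposited table was -0.65, from -0.82 for IDI1 to -0.53 for FDPS. IDI1, the isomerase of isopentenyl diphosphate, had 256 and 278 normalised reads in DTC a and b, against 666.5, 461 and 423 in parental a, b and c. The authors' deposited table gave IDI1 a log2 fold change of -0.82 (SE 0.28; adjusted p = 0.220.) MVK, mevalonate kinase, had 117 and 142 normalised reads in DTC a and b, against 248, 211 and 204 in parental a, b and c, and its parental values were close together. FDPS, the synthase of farnesyl diphosphate, had 684 and 621 in DTC a and b, against 965, 957 and 985 in parental a, b and c, so parental a did not differ from its group. Its mean was 653 ± 44.6 in DTC cells (SD, n = 2) and 969 ± 14.1 in parental cells (SD, n = 3), with an adjusted p of 0.382 in the authors' deposited table. ACAT2, a thiolase of acetoacetyl-CoA, and MVD, the decarboxylase that ends the mevalonate steps, had DTC means of 0.61 and 0.64 of the parental means. PMVK, phosphomevalonate kinase, had 247 and 202 normalised reads in DTC a and b, against 285, 434 and 484 in parental a, b and c, with parental a the nearest to DTC. ACAT2 overlaps TCP1 on the opposite strand, and MVK overlaps MMAB, and the sources used here do not state whether counting used strand.

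HMGCS1, the synthase of hydroxymethylglutaryl-CoA and a much used SREBP2 target, depended on 1 library. It had 863 and 895 normalised reads in DTC a and b, against 2954, 936 and 944 in parental a, b and c. Parental a was 3.14 times the mean of parental b and c, whereas the DTC mean was 0.94 of it. The authors' deposited table gave HMGCS1 a log2 fold change of -0.60 ± 0.38 (SE), and the refit without parental a gave -0.06 ± 0.39.

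Among the 11 sterol enzymes, 8 had both DTC libraries below all 3 parental ones, and their median log2 fold change in the authors' deposited table was -0.51. HSD17B7, the 3-ketosteroid reductase of the demethylation steps (chromosome 1, 162790702 to 162812817), had 190.5 and 204 normalised reads in DTC a and b, against 423, 394 and 348 in parental a, b and c. The DTC mean was 0.508 of the parental mean, the parental libraries were close together, and parental a was no exception. The authors' deposited table gave HSD17B7 a log2 fold change of -0.88 (SE 0.25; adjusted p = 0.0545.) With only genes of a mean level of at least 50 adjusted together it passed, at 0.047. Without the trend with length and GC content its adjusted p was 0.44, and at 1190 bases its transcript was the shortest of the 28. It has a near-identical pseudogene copy, HSD17B7P2, so its reads are uncertain to that extent. TM7SF2, a sterol C14 reductase (chromosome 11, 65111845 to 65116384), had 45.0 and 36.8 normalised reads in DTC a and b, against 97.4, 94.3 and 99.9 in parental a, b and c. The DTC mean was 0.42 of the parental mean with no overlap, and the adjusted p in the authors' deposited table was 0.089. Without the trend with length and GC content, the log2 fold change of TM7SF2 went from -1.03 to -0.78 and its adjusted p was 0.33. TM7SF2 shares its span with VPS51 on the same strand.

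EBP, the sterol isomerase, had 277 and 280.2 normalised reads in DTC a and b, against 356, 617 and 707 in parental a, b and c. Parental a stood nearer to DTC than to its own group, and the adjusted p of EBP in the authors' deposited table was 0.329. FDFT1, squalene synthase, had 562 and 582 normalised reads in DTC a and b, against 977, 807 and 724.5 in parental a, b and c. SC5D, the C5 desaturase, had 435 and 404 in DTC a and b, against 752, 618 and 576 in parental a, b and c. Both were below every parental library, with adjusted p-values of 0.458 and 0.423 in the authors' deposited table. NSDHL, a decarboxylating dehydrogenase, had the smallest shift of the 8, with a DTC mean of 956 ± 30.8 (SD, n = 2) and a parental mean of 1219 ± 98.8 (SD, n = 3).

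MSMO1, the C4 methyl oxidase, had 427 and 403 normalised reads in DTC a and b, against 1146, 635 and 582 in parental a, b and c. DHCR7, which makes cholesterol in the last step of 1 branch, had 689 and 729 in DTC a and b, against 1438, 843 and 897 in parental a, b and c. In both genes the groups were apart, but parental a held 1.88 and 1.65 times the mean of parental b and c. Without parental a, their refitted log2 fold changes were -0.43 ± 0.34 and -0.24 ± 0.31, against -0.75 ± 0.32 and -0.49 ± 0.29 with it.

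In SQLE, LSS and CYP51A1 the groups overlapped. SQLE, squalene epoxidase, had 609 and 559 normalised reads in DTC a and b, against 1483, 687 and 607 in parental a, b and c. LSS, lanosterol synthase, had 220.5 and 210.4 in DTC a and b, against 547, 169 and 171 in parental a, b and c. CYP51A1, the lanosterol demethylase, had 58.2 and 67.2 in DTC a and b, against 107, 20.6 and 27.1 in parental a, b and c. LSS and CYP51A1 thus lay above parental b and c and below parental a, and the DTC mean was 1.27 and 2.63 times the mean of parental b and c. Neither difference passed: without parental a the refitted adjusted p was 0.73 for LSS and 0.27 for CYP51A1. In the authors' deposited table the log2 fold change of LSS was -0.30 ± 0.39 (SE) and that of CYP51A1 0.15 ± 0.41 (SE), and that of LSS changed sign without parental a, to 0.21. CYP51A1 was the lowest of the 28 genes, with 66 and 53 reads recovered in DTC a and b and 127, 21 and 26 in parental a, b and c.

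**Figure D3:**
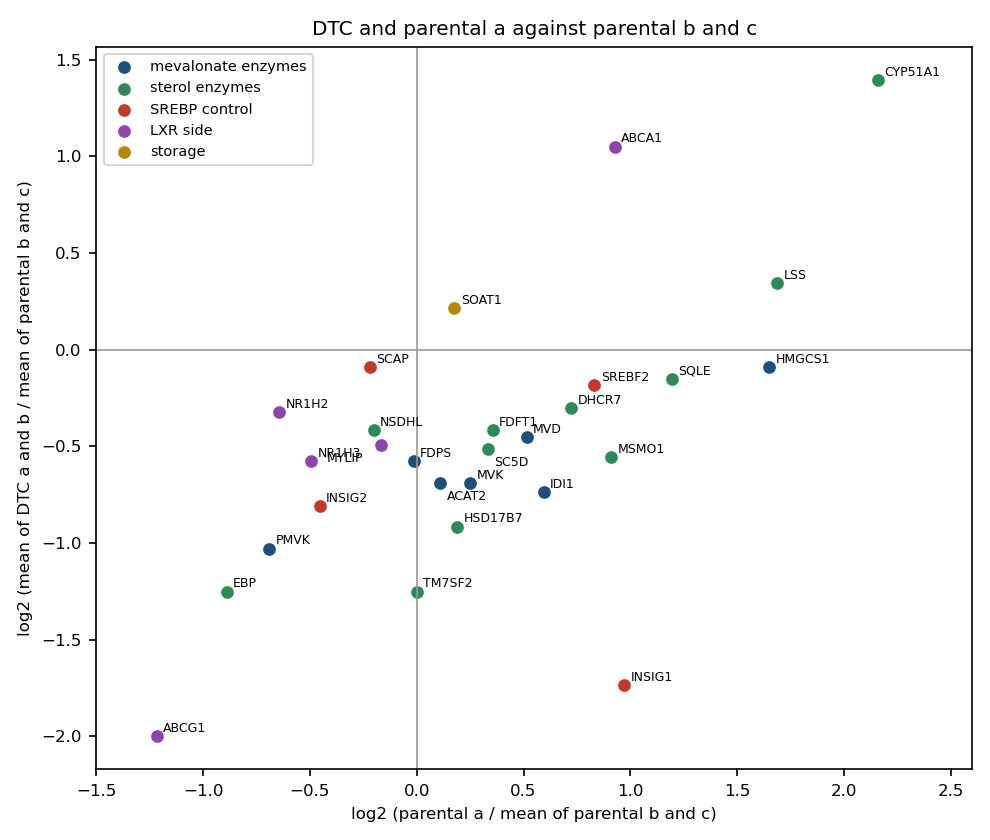
Log2 ratio of parental a to the mean of parental b and c (horizontal axis) and log2 ratio of the DTC mean to the same parental b and c (vertical axis), 1 point per gene, coloured by role. Both axes share parental b and c, so a slope is no result; INSIG1 lies low on the right, apart from HMGCS1, SQLE and SREBF2, which are near 0 on the vertical axis.

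Set against parental a alone, both DTC libraries were lower in all 18 enzymes. Among the 20 cholesterol genes with a mean level under 1000, all 20 were lower than in parental a, where 37.1% of the 8029 genes were, and 17 were lower than in parental b and c, where 46.8% were. Parental a itself was at least 1.5 times the mean of parental b and c in 7 of the 20, where 23.3% of the 8029 genes were. Over all 28 genes, 10 reached that ratio, namely HMGCS1, IDI1, SQLE, LSS, CYP51A1, MSMO1, DHCR7, INSIG1, SREBF2 and ABCA1. Of these 10, INSIG1 had a DTC mean of 0.30 and IDI1 one of 0.60 of the mean of parental b and c, and the other 8 lay from 0.68 (MSMO1) to 2.63 (CYP51A1).

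The LXR genes differed in direction. ABCG1, an exporter of cholesterol to high-density lipoprotein (chromosome 21, 42199689 to 42297244), had 79.4 and 58.3 normalised reads in DTC a and b, against 120.0, 296 and 260.2 in parental a, b and c. The groups did not overlap, and the DTC mean was 0.25 of parental b and c and 0.57 of parental a. The authors' deposited table gave ABCG1 a log2 fold change of -1.25 (SE 0.36; adjusted p = 0.0729.) Without parental a the refit called ABCG1 lower, at -1.41 ± 0.37 with an adjusted p of 0.028. In that refit 0.385% of 11426 genes were called lower and 0.385% higher, and the group cannot be told apart from the library difference given above. The refits without parental b or parental c did not call ABCG1, with adjusted p-values of 0.48 and 0.33. ABCA1, the exporter to lipid-poor apolipoprotein, lay on the other side, with 3121 and 2733 normalised reads in DTC a and b, against 2683, 1493 and 1329 in parental a, b and c. DTC b exceeded parental a only narrowly, and both were well above parental b and c. For ABCA1 the authors' deposited table gave 0.55 ± 0.32 (SE) on the log2 scale, with an adjusted p of 0.494. Its transcript, at 10494 bases, was the longest of the 28, and its log2 fold change was 0.18 once the trend with length and GC content was taken out.

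Of the receptors themselves, NR1H2 had 1088 and 1173 normalised reads in DTC a and b, against 912, 1384 and 1458 in parental a, b and c, inside the parental range. NR1H3 had 413 and 395.5 in DTC a and b, against 424, 579 and 622.5 in parental a, b and c, where parental a was close to DTC a. MYLIP, which marks lipoprotein receptors for breakdown, had 358 and 312 in DTC a and b, against 419, 484.5 and 457 in parental a, b and c, just below every parental library. None of the 3 passed, with adjusted p-values of 0.833, 0.531 and 0.505 in the authors' deposited table. SOAT1 had 1608.5 and 1651 normalised reads in DTC a and b, against 1587, 1403 and 1415 in parental a, b and c. The gap to parental a was narrow, and the 95% interval of SOAT1 in the authors' deposited table ran from -0.28 to 0.56 on the log2 scale. NR1H3 overlaps ACP2 on the opposite strand, and 14 of the 28 genes share their span with some gene of that strand.

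**Figure D4:**
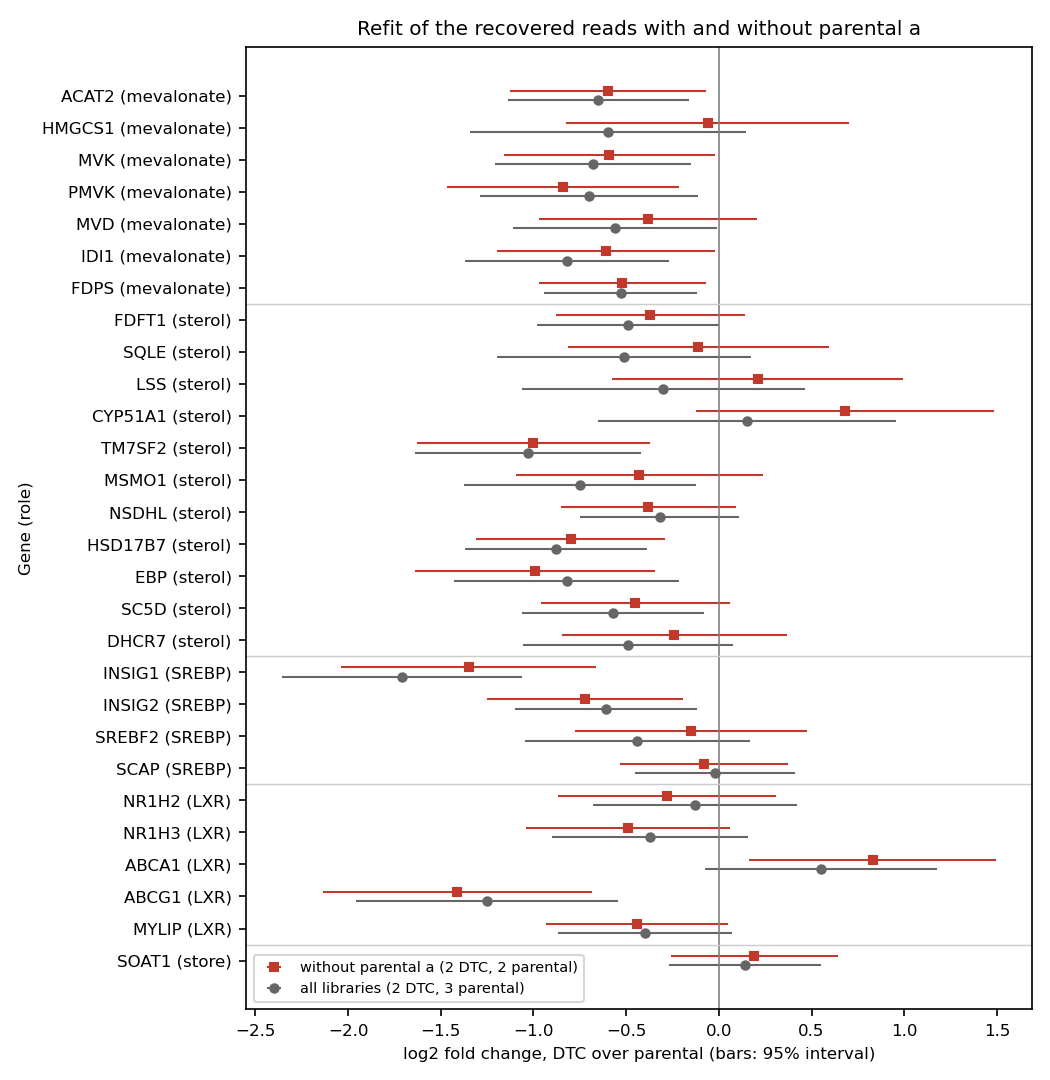
Log2 fold change of DTC over parental cells (horizontal axis; bars, 95% interval) for each gene (vertical axis), refitted to the recovered reads without parental a (red squares) and with all libraries (grey circles). INSIG1, ABCG1, TM7SF2, HSD17B7 and EBP are among the genes left of 0 in both, while HMGCS1, SQLE and SREBF2 come close to 0 without parental a. The intervals are not adjusted for the number of genes. INSIG1 was called in both refits, ABCG1 only without parental a, and no other gene shown in either.

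Per 1000 bases of transcript, INSIG2 and NR1H2 were among the highest, with 544 and 566 normalised reads in DTC cells and 873 and 626 in parental cells. NSDHL had 495 per 1000 bases in DTC cells and 632 in parental cells, and FDPS 442 in DTC cells and 656 in parental cells. At the low end were CYP51A1, with 19.5 in DTC cells and 16.0 in parental cells, ABCG1, with 19.8 in DTC cells and 64.9 in parental cells, and TM7SF2, with 23.7 in DTC cells and 56.5 in parental cells. INSIG1 had 52.3 per 1000 bases in DTC cells and 234 in parental cells, so that the ratio of INSIG1 to INSIG2 per length was smaller in DTC cells. In bulk RNA, fewer cells with a transcript and less of it per cell cannot be told apart.

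Length bore on these values. In the authors' deposited table the median log2 fold change was -0.50 in the tenth of tested genes with the shortest transcripts (median 1114 bases) and 0.38 in the tenth with the longest (median 9544 bases). Once the trend with length and GC content was taken out, the median of the 28 genes was -0.43, 25 were below 0, and the value of INSIG1 was -1.66 with an adjusted p of 0.00034. NR1H2 and SOAT1 changed sign, to 0.06 and -0.10. Among the genes that shifted most were short ones, whose values moved up, HSD17B7 to -0.49, PMVK to -0.35 and FDPS to -0.22, and the longest one, ABCA1, whose value moved down to 0.18.

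Other genes of the pathway were followed in 7 lists. Of 18 sterol and isoprenoid branch enzymes tested by DESeq2 in the authors' deposited table, none was called, 2 were lower at an unadjusted p under 0.05, and the median was -0.08 on the log2 scale. C14orf1, the gene of the scaffold protein ERG28, had 277 and 299 normalised reads in DTC a and b, against 439, 628 and 632 in parental a, b and c. Its adjusted p in the authors' deposited table was 0.13, and that of GGPS1, the synthase of geranylgeranyl diphosphate, was 0.36. None of 5 genes of acetyl-CoA supply was called, with 1 lower at an unadjusted p under 0.05, and the authors' deposited table gave SLC25A1, the citrate carrier, -0.58 ± 0.28 (SE) and ACLY, ATP citrate lyase, 0.33 ± 0.31 (SE). None of 12 genes of SREBP processing and turnover was called, with 1 lower at an unadjusted p under 0.05 and in the authors' deposited table the median was 0.13. That gene was SREBF1, which encodes the SREBP of fatty acid synthesis and is itself an LXR target, with 997 and 885 normalised reads in DTC a and b, against 1501, 1843 and 1876 in parental a, b and c. The groups of SREBF1 did not overlap, and its adjusted p in the authors' deposited table was 0.079, whereas FAF2, a factor of protein extraction from the membrane, had 0.45 ± 0.28 (SE).

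Of 10 SREBP fatty acid targets, the authors' deposited table called 1 lower and none higher, with 4 lower and 0 higher at an unadjusted p under 0.05, and their median was -0.36 on the log2 scale. SCD, the stearoyl-CoA desaturase, had 976 and 951 normalised reads in DTC a and b, against 5840.0, 2468 and 2312 in parental a, b and c. As with INSIG1, both DTC libraries lay far below every parental library, and parental a was the highest. The authors' deposited table gave SCD a log2 fold change of -1.40 (SE 0.35; adjusted p = 0.024.) FADS1, a fatty acid desaturase, was next in the list with an adjusted p of 0.12 in the authors' deposited table. None of 5 tested LXR targets was called, with 1 lower at an unadjusted p under 0.05, again SREBF1, and LPCAT3, an acyltransferase of phospholipids, had 0.30 ± 0.25 (SE) in the authors' deposited table.

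Of 12 sterol transport and storage genes, 1 was called higher and none lower, and 2 were higher and 2 lower at an unadjusted p under 0.05. GRAMD1B, a carrier of cholesterol from the plasma membrane to the endoplasmic reticulum, had 329 and 408 normalised reads in DTC a and b, against 185.5, 111 and 108 in parental a, b and c. Its log2 fold change in the authors' deposited table was 1.19 ± 0.31 (SE) with an adjusted p of 0.033, and the groups did not overlap. NPC2, the lysosomal cholesterol carrier, was not resolved by library and had -0.86 ± 0.27 (SE) with an adjusted p of 0.13 in the authors' deposited table. None of 3 tested genes in the list named oxysterol making was called, with 1 lower at an unadjusted p under 0.05. That gene was EBPL, and these data do not show that it makes oxysterols. Its adjusted p in the authors' deposited table was 0.45. EBPL had 722 and 689.6 normalised reads in DTC a and b, beside 727, 1657 and 1625 in parental a, b and c. CYP39A1, an oxysterol hydroxylase, had -0.26 ± 0.35 (SE) in the authors' deposited table.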

How the data were processed

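The submitters' processing notes name FastQC, STAR and DESeq2, and hg38 as the build. Not given in the sources used here are versions, the counting step and its annotation. Per the labels' protocols, libraries came from a stranded kit. The authors' deposited mean level is a signal, the average over libraries of reads divided by size factors. Fold changes and standard errors were deposited by the authors in log2 units, the Wald score as their ratio, and p-values with Benjamini-Hochberg adjusted p-values. Positive fold changes are higher in DTC cells. No column of values was left unused.

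Each deposited mean sums the reads of the libraries, each times a step of that library. All 12705 genes with a mean under 10 resolved in 1 way. The groups follow from the sign of the fold change that a library's reads give and from the labelled numbers of 3 and 2 libraries. For higher genes the reads also had to give, in a penalised negative binomial fit, the deposited log2 fold change within 3e-08, the standard error and the dispersion rule. Of 11556 tested genes with a mean under 1000, or named here and under 2600, 11426 resolved in 1 way, 130 in none and 0 in several. The procedure was tested on simulated data. Reads were refitted without each library at the dispersion and prior of the deposited fit, and adjusted over 11426 genes.

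Called means an adjusted p under 0.05 over the 15223 genes that have one, the lowest with a mean of 8.23. The edgeR and DESeq2 tests planned for deposited counts were not run, since no counts per library are in the table used. Members and lists were chosen with earlier results of these data known. All members were to be named, and from each other list every called gene and the 2 with the smallest p. Lengths, GC content and positions are GENCODE 29's (GRCh38), from the longest coding transcript. Python 3.11.15, scipy 1.17.1 and numba 0.67.0 were used.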

Additional observations from a re-analysis of the deposited data

How the results depend on the processing

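The number of cholesterol genes called lower, 1, was also 1 at an adjusted p under 0.01, without a filter on low values, with a log2 fold change beyond 1, with centred scores, after removal of the trend with length and GC content, and in the refit of all libraries. It was 4 at an adjusted p under 0.1 (INSIG1, HSD17B7, ABCG1 and TM7SF2), where 89 of all 15223 genes were lower and 64 higher. It was 2 (INSIG1 and HSD17B7) with a mean level of at least 50 or of at least 100, where 85 of 11777 and 73 of 10610 genes were called in either direction. It was 0 when the score was divided by its robust SD, where 1 of all 15223 genes was called and INSIG1 had an adjusted p of 0.78; the cause was not tested. Without 1 library each, it ran from 0 (without DTC a or DTC b) to 2 (without parental a). Of 11426 genes, these refits called 2 lower without DTC a, 0 without DTC b, 44 without parental a and 8 without parental b or c, against 38 with all libraries. No cholesterol gene was called higher under any of these. The median log2 fold change of the 28 genes kept its sign, from -0.59 without parental b to -0.43 without parental a. LSS changed sign without parental a, CYP51A1 without parental b or c, and SCAP without parental c, and none of them was called in any fit. Refits used dispersions that all 5 libraries had set. No paired analysis was possible because the libraries could not be tied to replicate numbers.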
